A study of Gasterosteus aculeatus with 62 samples.

Results

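The 85 genes described here had a median level in the telencephalon between 4 and 8 times that in the diencephalon of male threespined sticklebacks (Gasterosteus aculeatus). They were taken from the 20805 Ensembl gene identifiers among 22295 counted gene models. Levels are CPM, the counts of a gene scaled to the total in gene models of its library, and 12958 Ensembl genes reached a median of 5 CPM over the 31 telencephalon libraries, as the choice required. The ratio was taken between region medians over all libraries after adding 0.1 CPM to each, from 4 up to but not including 8. By the same measure 50 genes stood at 8-fold or more and 369 at 2- to 4-fold. The members were thus chosen by their measured medians in both regions, and the region difference is described without a test.

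The telencephalon is the front of the forebrain, and in fishes its pallium and subpallium are known for roles in learning, social behaviour and responses to danger. The diencephalon lies behind it and holds the thalamus and the hypothalamus, which controls hormone release and reproductive behaviour. The regions adjoin, and genes with a regional expression pattern are commonly used to tell such tissues apart. None of the 22295 model names matched the gene name table used here, so the genes are given by identifier and their functions are not stated.

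Nesting males met empty cages (control, 7 males), a caged live gravid female (courtship, 8 males), a caged model trout together with its odour cues (predator, 8 males), or a gravid female and a model trout at once (tradeoff, 8 males). The labels do not repeat the odour cues for the tradeoff treatment. All males had built nests, and both regions of each of the 31 males were dissected 1 hour after the trial, giving 62 libraries of polyadenylated RNA in 8 groups. The labels give no age or strain. Telencephalon libraries held 26.2 to 51.1 M counts in gene models and diencephalon libraries 26.6 to 47.7 M. Defining markers of either region could not be looked up without gene names, so the dissection labels were compared only with a regional index. This index was the mean log2(CPM + 0.1) of 419 non-member genes at least 2-fold higher in the telencephalon minus that of 770 genes at least 2-fold higher in the diencephalon.

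A single telencephalon library, from predator male 42, went against its label. Its regional index was -1.41, below the lowest diencephalon library at -1.05. The other 30 telencephalon libraries ranged from 1.01 to 3.18, and the 31 diencephalon libraries from -1.05 to -0.70. Control males 30 and 12 had the lowest indices of the 30, at 1.01 and 1.80. The edgeR results on treatment in the telencephalon, and those on spread, are therefore also given without the library labelled as the telencephalon of male 42. Where they changed, they are given without males 30 and 12 too. Region differences in treatment effect are also given without both libraries of male 42. DESeq2 and voom were run only with all libraries. The same genes that separate the regions define the index, so the library of male 42 was apart on a measure close to the one that chose the 85 genes. What set this library apart was not tested.

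The 85 genes were of moderate to high abundance. Their telencephalon medians ran from 5.07 to 416 CPM with a middle value of 39.6 CPM, against 29.9 CPM over the 12958 genes. Their diencephalon medians ran from 0.756 to 94.5 CPM with a middle value of 7.31 CPM, so they were detected in both regions. A member had a median of 1321 counts in a telencephalon library and 247 in a diencephalon library. The lowest single count was 5 in a telencephalon library other than that of male 42 and 3 in a diencephalon library. Levels are shares of counts and are not per transcript length, so differences in level between genes also carry their lengths. In such bulk tissue, fewer cells of a type and less RNA per cell cannot be told apart.

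The most abundant member in both regions was ENSGACG00000016074. Its telencephalon level over the 30 libraries without male 42 was lowest at 267 CPM, 418 CPM in the median and highest at 555 CPM, and its diencephalon level ran from 64.0 through 94.5 to 129.6 CPM. The regions did not overlap in these libraries, whereas the telencephalon library of male 42 had 15.4 CPM, below every diencephalon library. ENSGACG00000005612 and ENSGACG00000000898 followed, with telencephalon medians of 387 and 385 CPM against 51.8 and 52.4 CPM in the diencephalon. Their ratios, 7.44 and 7.32, lay near the upper limit. ENSGACG00000010570 had medians of 331 and 67.5 CPM, ENSGACG00000004903 of 289 and 64.5 CPM, and ENSGACG00000013069 of 278 and 62.9 CPM. These 3 genes and ENSGACG00000016074 had ratios of 4.40 to 4.90, near the lower limit.

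At the other end, ENSGACG00000006524 had the lowest diencephalon median, 0.756 CPM, with 5.83 CPM in the telencephalon. ENSGACG00000002913 had medians of 5.07 and 0.903 CPM and was the member nearest to the level limit, while ENSGACG00000006495 at 4.79 CPM and ENSGACG00000016317 at 4.60 CPM fell just outside it. At the 4-fold limit ENSGACG00000009306 (4.00) and ENSGACG00000013764 (4.01) were just inside, and ENSGACG00000004282 (3.99) and ENSGACG00000013609 (3.98) just outside. At the 8-fold limit ENSGACG00000011189 (7.89) and ENSGACG00000004931 (7.87) were inside, and ENSGACG00000000626 (8.02) and ENSGACG00000011239 (8.09) outside. The limits cut a continuous range of ratios, so the members do not form a separate class.

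**Figure D1:**
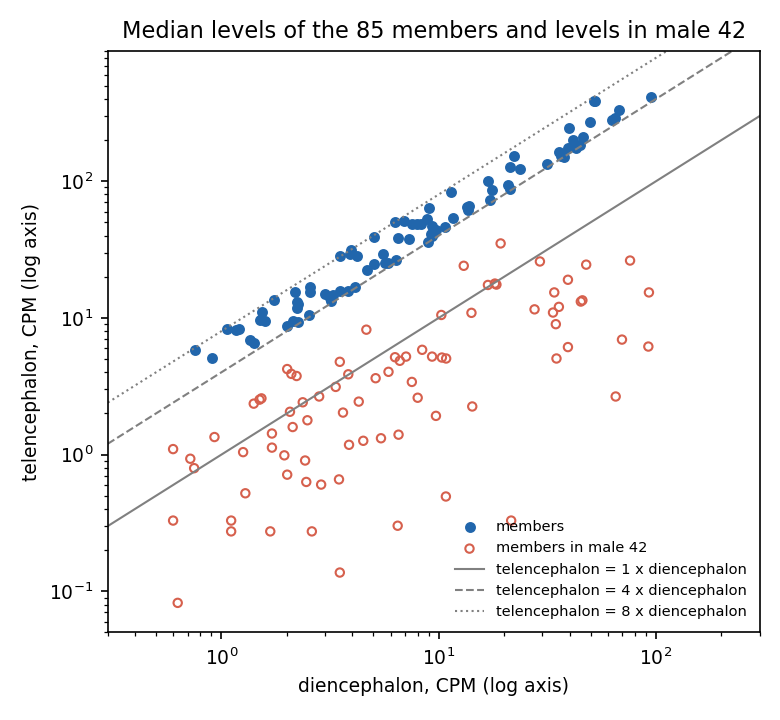
Median level of each of the 85 members over 31 telencephalon libraries (vertical, log axis, CPM) against its median over 31 diencephalon libraries (horizontal, log axis, CPM), as filled points, with the levels in both libraries of male 42 as open circles. The filled points lie between the 4-fold and 8-fold lines by choice, whereas most open circles lie below the line of equal levels. 2 members with no count in the telencephalon library of male 42 cannot be drawn on the log axis.

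Within single males the difference was seen in nearly all members once male 42 was set aside. In each of the other 30 males 82 of the 85 members were higher in the telencephalon, against 15.3% of the 12958 genes. For 73 members the lowest of these 30 telencephalon libraries lay above the highest diencephalon library, with 6.31% of all genes as background. With male 42 included only 3 members kept the regions apart, against 0.386% of all genes. Since the choice used this contrast, these counts describe how evenly it holds over males and are no test of it. Without males 30 and 12 as well, 78 members did not overlap (8.31% of all genes).

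The summed level of the 85 members shows how single males depart from this. In the telencephalon the sum was 6711 CPM in the median of 30 males, lowest in control male 30 at 4286 CPM and highest in courtship male 7 at 7747 CPM. In the diencephalon it ran from 1142 to 1653 CPM with a median of 1325 CPM. The telencephalon library of male 42 had a sum of 486 CPM, lower than in any diencephalon library. In it 80 members were below the lowest of the other 30 telencephalon libraries (42.8% of all genes), 73 were below the diencephalon median (67.0% of all genes) and 54 below the lowest diencephalon library (41.5% of all genes). The diencephalon library of male 42 had a sum of 1209.9 CPM, within the range of the others, and was the lowest of the 31 for 17 members (6.45% of all genes). Male 30 was the lowest of the 30 telencephalon libraries for 56 members (11.6% of all genes), but its sum stayed well above the diencephalon range.

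**Figure D2:**
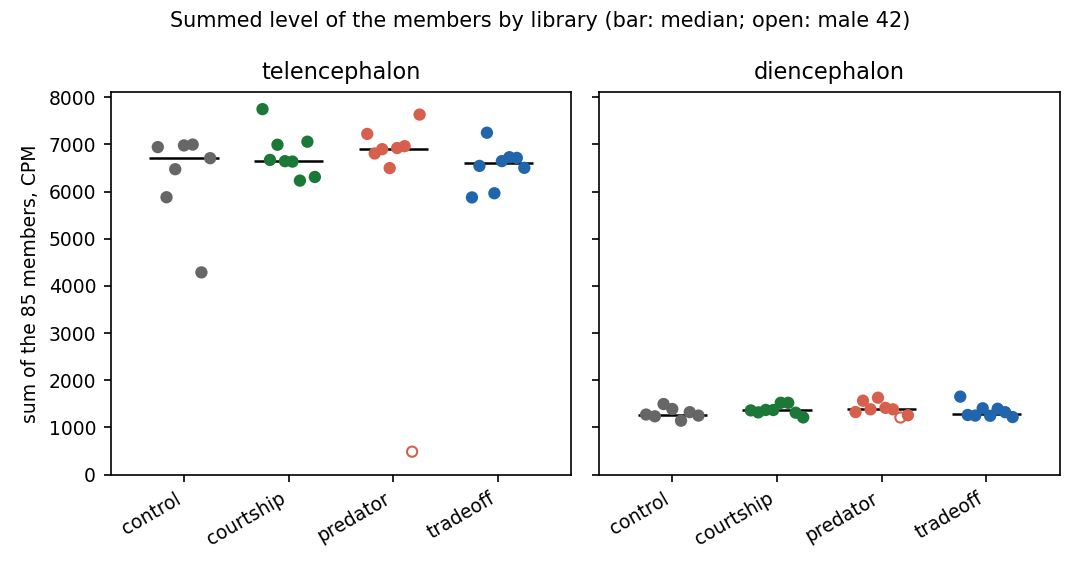
Sum of the CPM of the 85 members in each library (vertical, linear axis from 0), by treatment, for the telencephalon on the left and the diencephalon on the right. Each point is 1 male, bars are group medians, and open circles mark male 42. The telencephalon library of male 42 at 486 CPM lies below the diencephalon range, and control male 30 at 4286 CPM is the next lowest.

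The study asked how a courtship opportunity and predation risk, alone and together, act on the brain, and the choice of the members did not use the treatments. With all libraries, none of the 85 members passed an adjusted p of 0.05 for any treatment difference in the telencephalon by edgeR's quasi-likelihood test with Benjamini-Hochberg adjustment over 18714 genes. Only 3 genes did (0.0160% called). None passed in the courtship, predator or tradeoff comparison with control, in the mean effect of the female or of the predator cue, or in the departure from additivity (0% of all genes called in each). DESeq2 also called 0 members in these 7 comparisons, while it called 0.0460% of all genes for any treatment difference, 0.0138% for courtship against control, 0.00460% for predator against control and 0% in the others. The voom fit with sample quality weights called 0 members, with 0.00534% of all genes for any treatment difference, the same share for the predator cue and 0% in the others. At an unadjusted p under 0.05 edgeR gave 0 to 3 members per comparison, with 1 for any treatment difference (3.79% of all genes) and 3 for the predator cue (3.25%). The 3 comparisons with control share the control males, and their results are not independent.

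In the diencephalon, too, edgeR's quasi-likelihood test called 0 of the 85 members in each of the 7 comparisons, with 0% of 18942 genes called. DESeq2 called 0 members there as well, with 0.0368% of all genes called for any treatment difference, 0.0322% for courtship against control, 0.00460% each for the female and the departure from additivity, and 0% in the others. The voom fit called 0 members and 0% of all genes. Unadjusted, edgeR gave 0 to 7 members, the most for tradeoff against control (7 members, 3.75% of all genes). The mean effect of the predator cue followed with 5 members (3.30% of all genes).

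Treatment medians of the members differed by less than 1.5-fold in most cases, but in a smaller share than over all genes. Without male 42, the highest of the 4 telencephalon medians was within 1.5-fold of the lowest for 75 of the 85 members (96.4% of all genes), and the ratio of highest to lowest was 1.18 in the median against 1.09 over all genes. The predator group had the highest median for 44 members (21.5% of all genes), and the lowest median was in the tradeoff group for 41 (27.5%) and in the control group for 31 (18.6%). The median of the regional index followed the same order at its ends. It was 3.08 in the 7 predator males, 2.95 in courtship, 2.88 in control and 2.61 in tradeoff. In the diencephalon 77 members were within 1.5-fold (98.7% of all genes), and the highest median was most often in the tradeoff group (28 members, against 18.6% of all genes).

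In the fits without male 42 many members leaned the same way, with the most members under an unadjusted p of 0.05 in 2 comparisons. For predator against control, 27 of 85 members had an unadjusted p under 0.05, against 8.44% of all genes, and the median log2 fold change of the members was 0.19 against -0.01 over all genes. For the departure from additivity it was 28 members against 15.3%, with a median of -0.28 for the members and 0.01 over all genes. With the regional index in the fit these counts were 9 members (2.72% of all genes) and 4 members (3.60%), and the medians were 0.02 and -0.01. The index is made of other genes with a region difference, which most members followed. A fall with the index is therefore not independent of how the members were chosen. Counts in the other comparisons showed no such fall with the index, apart from courtship against control with 2 members (5.40%) before and 1 (2.79%) after. In that comparison 73 of 85 members had a positive log2 fold change before (49.1% of all genes) and 55 after (51.8%). Their median was 0.12 before and 0.02 after. The predator cue had 8 members (3.57%) before and 11 (4.05%) after, tradeoff against control 9 (3.55%) and 12 (4.50%), the female 3 (3.39%) and 4 (3.96%), and any treatment difference 12 (7.89%) and 12 (3.89%).

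Leaving out males 42, 30 and 12, with no index in the fit, gave another picture. Unadjusted, 7 members were under 0.05 for predator against control (2.84% of all genes, median log2 fold change of the members 0.03) and 3 for courtship against control (2.59%, -0.02). For tradeoff against control it was 24 members (10.3%, median -0.09), for the female 27 (9.70%, -0.07), for the predator cue 16 (5.52%, -0.03) and for the departure from additivity 15 (6.90%, -0.14). For any treatment difference it was 31 members (10.3%). The lean of the members thus depended on which libraries were in the fit. Whether regional makeup had a part in the members' treatment differences was not tested.

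A few members stood out for the predator cue, meaning the predator and tradeoff males together against the control and courtship males. ENSGACG00000010788 and ENSGACG00000000451 were higher with the cue once the telencephalon library of male 42 was left out. They were 2 of the 7 genes called higher among 18687, with 0.0375% of all genes called. Unadjusted, 8 members were under 0.05 in this fit (3.57% of all genes), and 12 for any treatment difference (7.89%).

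In the telencephalon ENSGACG00000010788 had 5.53, 9.72 and 13.7 CPM as the lowest, median and highest of the 7 control males. The 8 courtship males had 9.66, 12.6 and 20.8 CPM, the 7 predator males without male 42 had 12.4, 20.8 and 30.4 CPM, and the 8 tradeoff males 14.1, 17.9 and 23.4 CPM. All 15 males with the cue were above the median of the males without it, 7 of them were above the highest male without it, and every tradeoff male was above every control male. The mean cue effect was 0.81 on the log2 scale (SE 0.139, adjusted p = 0.00965 by edgeR's quasi-likelihood test). Predator males exceeded control males by 1.14 on that scale (SE 0.204, edgeR adjusted p = 0.0227), where it was 1 of 3 genes called higher (0.0161% of all genes). With male 42, at 0.987 CPM, the cue effect was 0.72 (SE 0.231) and the edgeR adjusted p was 0.998, so a single library decided the call.

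ENSGACG00000000451 had 7.01, 8.91 and 14.8 CPM in the control males and 7.86, 11.9 and 15.1 CPM in the courtship males. It had 11.4, 17.2 and 20.1 CPM in the 7 predator males and 12.9, 16.4 and 24.7 CPM in the tradeoff males. Of the 15 males with the cue, 12 were above the highest male without it and all were above the median without it. With the cue it was higher by 0.69 (log2 fold change, SE 0.120, edgeR adjusted p = 0.00965) without male 42, and by 0.60 (SE 0.227, edgeR adjusted p = 0.998) with it. Male 42 had 0.603 CPM.

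The index covariate left the cue differences of both genes in place, but not the predator call of ENSGACG00000010788. For predator against control 0 members passed with it, and 0 of 18687 genes. The smallest edgeR adjusted p of a member was 0.311 there. With the covariate, and without male 42, the cue effects were 0.77 for ENSGACG00000010788 (edgeR adjusted p = 0.00417) and 0.66 for ENSGACG00000000451 (edgeR adjusted p = 0.00392). Another member, ENSGACG00000009792, then passed with a log2 fold change of 0.62 (SE 0.115, edgeR adjusted p = 0.0230), so that 3 of 85 members were among the 8 genes called higher (0.0428% of all genes). In the same fit ENSGACG00000000451 passed for tradeoff against control (log2 fold change 0.84, edgeR adjusted p = 0.0233), where 0.0214% of all genes were called higher. It also passed for any treatment difference (edgeR adjusted p = 0.0238, 0.0161% called). Without males 42, 30 and 12, ENSGACG00000010788 passed for the cue (0.73, edgeR adjusted p = 0.0469, 0.0266% called higher) and ENSGACG00000000451 did not (0.61, edgeR adjusted p = 0.0652). For predator against control 0 members passed in that fit, and 1 of 18815 genes did.

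ENSGACG00000009792 was singled out after its values were seen. Without male 42 its telencephalon medians were 10.5 CPM in control, 13.5 in courtship, 20.9 in predator and 18.5 in tradeoff males. The range was 5.38 to 18.6 CPM without the cue and 12.8 to 22.7 CPM with it, so the groups overlapped, with 8 of 15 cue males above all the others. In the fit without the covariate its cue effect was 0.64 (SE 0.140, edgeR adjusted p = 0.153) and did not pass.

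The same 3 genes pointed the same way in the diencephalon at far lower levels, with no call. ENSGACG00000009792 had a median of 2.64 CPM without the cue and 3.74 with it, with a log2 fold change of 0.58 (SE 0.151) and an edgeR adjusted p of 1.00. The effect was 0.51 (SE 0.196) for ENSGACG00000000451 and 0.45 (SE 0.180) for ENSGACG00000010788. In the diencephalon 4 to 9 of the 16 cue males were above the highest male without the cue. The remaining members under an unadjusted p of 0.05 for the cue in the diencephalon were ENSGACG00000015391 (0.31, SE 0.0916) and ENSGACG00000011142 (0.24, SE 0.0963), named after their values were seen. The libraries of a male share the animal, so the regions do not give independent evidence.

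The difference in treatment effect between the regions was tested directly over all 62 libraries, and 0 members passed in edgeR's quasi-likelihood test for the courtship, predator or tradeoff effect (0% of 19321 genes called in each). This fit had no term for the male, so it did not use the pairing of the regions. Unadjusted, 0 members were under 0.05 for courtship (2.04% of all genes), 0 for predator (1.89%) and 1 for tradeoff (1.24%). DESeq2 also called 0 members, with 0.0274% of all genes called for courtship, 0.0137% for predator and 0.00915% for tradeoff, and voom called 0 members and 0% of all genes. The predator effect on ENSGACG00000010788 was larger in the telencephalon by a log2 difference of 0.53 (SE 0.431, edgeR adjusted p = 1.00). With the male as a block and without male 42 it was larger by 0.67 (SE 0.272, edgeR adjusted p = 0.635). Without both libraries of male 42 and with no block, 2, 3 and 2 members were under an unadjusted 0.05 for courtship, predator and tradeoff (2.86%, 3.77% and 1.94% of all genes). With the block as well it was 4, 9 and 2 members (5.51%, 7.70% and 4.49%). In both fits 0 members passed. The members' median predator difference was -0.02 with all libraries, 0.14 without male 42 and 0.18 with the block as well.

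Across males and within treatments, ENSGACG00000010788 and ENSGACG00000000451 varied together with some other members in the telencephalon. Over the 30 libraries the highest correlations of ENSGACG00000010788 with any other member were 0.88 with ENSGACG00000018434, 0.85 with ENSGACG00000009792, 0.77 with ENSGACG00000015391, 0.75 with ENSGACG00000011142 and 0.66 with ENSGACG00000000451. The regional index was not taken out. The correlations of ENSGACG00000010788 with the same genes in the diencephalon were -0.05 to 0.29. The genes were picked by their telencephalon values, so lower values in the diencephalon partly follow from that choice. ENSGACG00000000451 correlated with ENSGACG00000018434 at 0.74 in the telencephalon and 0.75 in the diencephalon. These points share libraries and depth, and the correlations are descriptions.

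**Figure D3:**
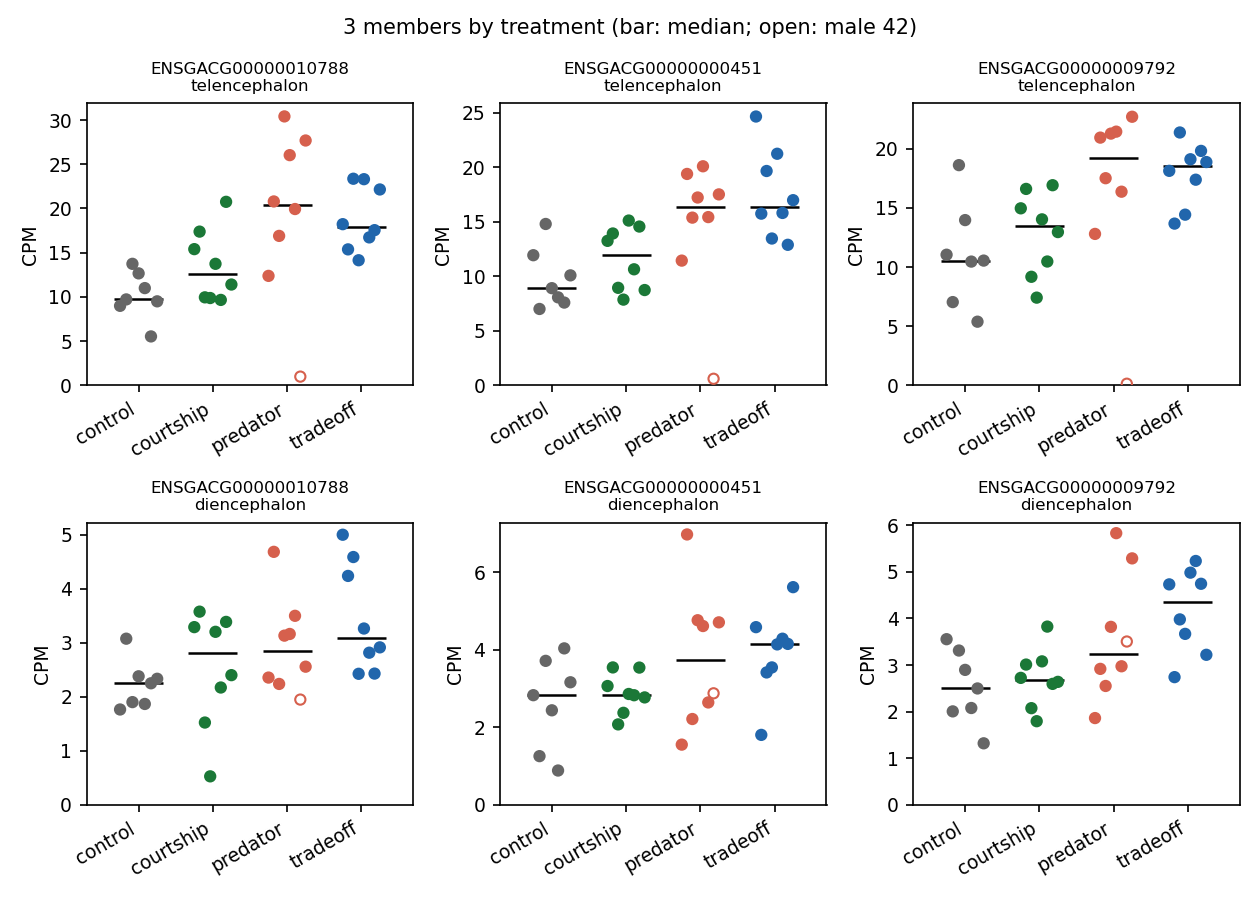
CPM (vertical, linear axes from 0) of ENSGACG00000010788, ENSGACG00000000451 and ENSGACG00000009792 by treatment, in the telencephalon (top) and the diencephalon (bottom). Each point is 1 male, bars are group medians with male 42 included, and open circles mark male 42. In the telencephalon the predator and tradeoff males other than male 42 sit mostly above the control males, and the diencephalon levels are lower, with more overlap.

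Members called lower appeared only in the fits without males 42, 30 and 12. ENSGACG00000015381 was then lower in tradeoff than in control males by a log2 fold change of -0.26 (SE 0.0441, edgeR adjusted p = 0.0135), where 0.0159% of all genes were called lower. It was also lower with the female, with a mean effect of -0.18 (SE 0.0299, edgeR adjusted p = 0.0450, 0.00531% called lower). With all libraries its female effect had the opposite sign, 0.02 (SE 0.194), and its tradeoff effect was -0.05 (SE 0.279). For any treatment difference, 4 members passed in that fit (0.186% of all genes), namely ENSGACG00000015381, ENSGACG00000018939, ENSGACG00000001291 and ENSGACG00000019080. With only male 42 left out and the index as covariate, the tradeoff effect on ENSGACG00000015381 was -0.01 (SE 0.0620, edgeR adjusted p = 0.999). This gene had one of the highest correlations with the index over the 30 libraries (0.88), and the index had a median of 2.98 in the remaining 5 control males against 2.61 in tradeoff males. Control males 30 and 12 were left out for their low index, which most members followed. The calls in the fit without males 42, 30 and 12 are therefore not independent of that choice.

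The spread between males was measured as the SD of log2(CPM + 0.1) around the treatment means. In the telencephalon it had a median of 0.76 over the members and 0.19 over the 12958 genes when all 31 libraries were used. Without male 42 the medians were 0.25 and 0.15, and without males 42, 30 and 12 they were 0.20 and 0.14. In the diencephalon, where the members are lower and counting error is larger, the median was 0.33 against 0.15. The SD was larger in the telencephalon, without male 42, than in the diencephalon, with male 42, for 23 of 85 members (55.6% of all genes). The biological coefficient of variation, which sets counting error aside, was 0.168 in the telencephalon without male 42 (0.138 over the genes fitted). It was 0.378 there with all libraries (0.172) and 0.214 in the diencephalon with all libraries (0.130). Diencephalon spread was not computed without male 42, so values without that male are not from like sets of males.

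The least variable members in the telencephalon were ENSGACG00000006780, ENSGACG00000013159 and ENSGACG00000009306, with SDs of 0.17, 0.17 and 0.18 without male 42. In contrast, 3 members had an SD above 1 (0.540% of all genes). They were ENSGACG00000006569 (2.70), ENSGACG00000006670 (2.32) and ENSGACG00000020104 (1.41). They were also the 3 members with an SD above 1 in the diencephalon (0.347% of all genes).

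Most of the other members moved together with the regional index. Over the 30 telencephalon libraries the correlation with the index within treatments had a median of 0.61 over the members and -0.03 over all genes. It exceeded 0.5 for 54 members (9.04% of all genes) and was below 0 for 6 (53.0% of all genes). The highest were ENSGACG00000012436 (0.90), ENSGACG00000015381 (0.88) and ENSGACG00000004903 (0.87). The lowest were ENSGACG00000006569 (-0.33), ENSGACG00000006670 (-0.25) and ENSGACG00000002630 (-0.08). The members were chosen for a region difference and the index is made of other genes with one, so the relation is not independent of the choice. What it comes from was not tested.

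After the index was taken out, the median SD of the members in the telencephalon was 0.19, against 0.14 over all genes. That of ENSGACG00000012436 went from 0.20 to 0.09. Pairs of members correlated at 0.32 in the median before and 0.07 after, while pairs in the diencephalon correlated at 0.08. Pairs over all genes had a median of 0.01 in the telencephalon.

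**Figure D4:**
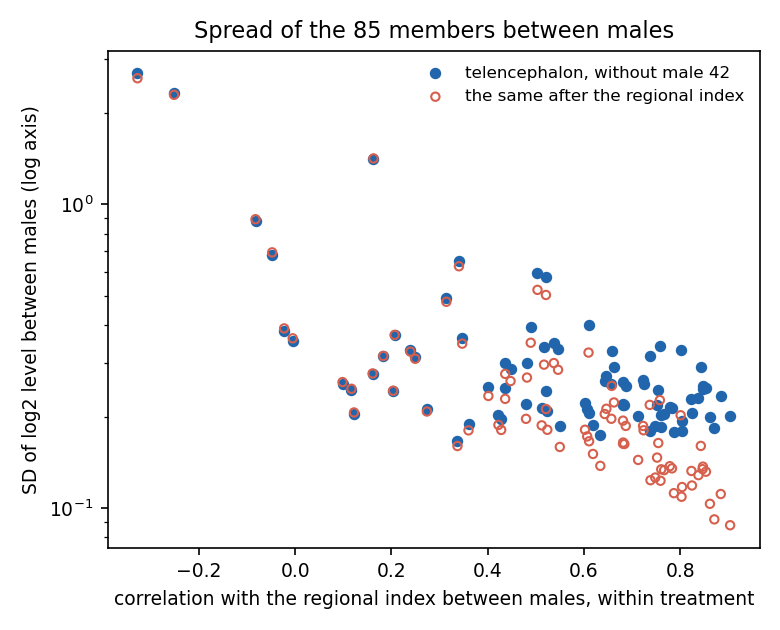
SD of log2(CPM + 0.1) between males within treatments in 30 telencephalon libraries (vertical, log axis) of each of the 85 members against its correlation with the regional index (horizontal). Filled points are the SDs as measured and open circles those after the index was taken out. Members with a high correlation lose spread, down to 0.09 for ENSGACG00000012436, while the 3 members above an SD of 1 change little, from 2.70 to 2.60, 2.32 to 2.29 and 1.41 to 1.42.

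Levels in the regions of a male were only loosely related for most members. Over 30 males the correlation of the telencephalon and diencephalon levels within treatments had a median of 0.14 for the members and 0.43 over all genes. It was below 0 for 28 members (8.26% of all genes) and above 0.5 for 7 (39.5%). Whether these shares differ beyond chance was not tested. The highest values were those of ENSGACG00000020104 (0.91), ENSGACG00000002874 (0.67) and ENSGACG00000000622 (0.65), and the lowest those of ENSGACG00000006569 (-0.63) and ENSGACG00000006670 (-0.55).

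ENSGACG00000020104 varied widely between males and in parallel in both regions. Its telencephalon level ran from 1.73 to 51.7 CPM over the 30 males with a median of 23.2 CPM, and its diencephalon level from 0.198 to 8.23 CPM with a median of 4.68 CPM. Predator males 34 and 44 and control male 15 had 1.73, 1.79 and 2.07 CPM in the telencephalon and 0.198, 0.608 and 0.605 CPM in the diencephalon. Predator male 17, the highest, had 51.7 and 5.70 CPM. These low males came from the predator and control groups. The telencephalon was higher in all 30 males, by 1.36-fold to 8.93-fold after adding 0.1 CPM to each level.

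ENSGACG00000006569 and ENSGACG00000006670 tended the opposite way, with negative correlations between the regions of a male (-0.63 and -0.55). The contrast was strongest in some males. In control males the medians of ENSGACG00000006569 were 246 CPM in the telencephalon and 63.0 CPM in the diencephalon. ENSGACG00000006569 ran from 0.136 to 664 CPM in the telencephalon of 30 males (median 253 CPM) and from 0.770 to 186 CPM in the diencephalon. ENSGACG00000006670 ran from 0.871 to 404 CPM (median 212 CPM) in the telencephalon and from 3.30 to 222 CPM in the diencephalon. The levels of these genes followed each other closely, with correlations within treatments of 0.98 in the telencephalon and 0.95 in the diencephalon. Each was higher in the diencephalon in 7 of the 30 males, although each had a telencephalon median over 4 times that of the diencephalon.

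The extreme males show the pattern. In control male 15 ENSGACG00000006569 had 0.136 CPM in the telencephalon and 144 CPM in the diencephalon. In predator male 33 it had 2.90 and 170.3 CPM, and in tradeoff male 1 it had 3.42 and 161 CPM. In control male 30 it had 364 and 0.770 CPM, in tradeoff male 11 it had 441 and 2.96 CPM, and in predator male 44 it had 664 and 22.0 CPM. All 3 of the first males combined a low telencephalon with a high diencephalon level, the other 3 the reverse, and both kinds included control, predator and tradeoff males. ENSGACG00000006670 had 0.871 and 109 CPM in male 15, 1.67 and 94.6 CPM in male 33 and 4.62 and 127 CPM in male 1. It had 252 and 3.30 CPM in male 30, 404 and 7.12 CPM in male 11 and 380.3 and 20.0 CPM in male 44.

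Added over both libraries of a male, the levels spanned a far smaller fold range than in either library. The range was 4879-fold in the telencephalon and 242-fold in the diencephalon for ENSGACG00000006569, and 464-fold and 67.3-fold for ENSGACG00000006670. Adding a high to a low level narrows such a range by itself. In CPM the sum spanned a wider range than the diencephalon level. For ENSGACG00000006569 the sum ran from 145 to 686 CPM with a median of 307 CPM, and for ENSGACG00000006670 from 96.2 to 412 CPM with a median of 249.6 CPM. Male 42 was the exception, with 0.905 and 2.43 CPM of ENSGACG00000006569 and 0.521 and 1.29 CPM of ENSGACG00000006670, low in both regions. CPM are shares of each library, so this sum is not an amount of RNA per brain.

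The summed level of the other members was close to its median in males 15 and 33 and lower in male 1. In males 15, 33 and 1 the sum of the remaining 83 members was 6473, 6493 and 5868 CPM in the telencephalon, against a median of 6436 CPM over 30 males. Their regional index was 3.02, 3.08 and 2.60 in the telencephalon, within the range of the other males, and -0.88, -0.70 and -0.76 in the diencephalon, where male 33 had the highest index of the diencephalon libraries. The next most similar member, ENSGACG00000004888, correlated with ENSGACG00000006670 at 0.32 in the telencephalon and 0.59 in the diencephalon. The telencephalon level of ENSGACG00000004888 ran only from 18.3 to 45.4 CPM. The predator cue effect on the pair was -0.06 for each in the telencephalon (SE 0.640 and 0.589, edgeR adjusted p = 0.999 for each). This contrast averages predator and tradeoff males, whose medians lay on opposite sides of the control median. Without male 42 the telencephalon medians of ENSGACG00000006569 were 246 CPM in control, 233 in courtship, 87.7 in predator and 328 in tradeoff males. Those of ENSGACG00000006670 were 220, 180, 116 and 255 CPM. What the opposed levels of the pair come from was not tested.

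**Figure D5:**
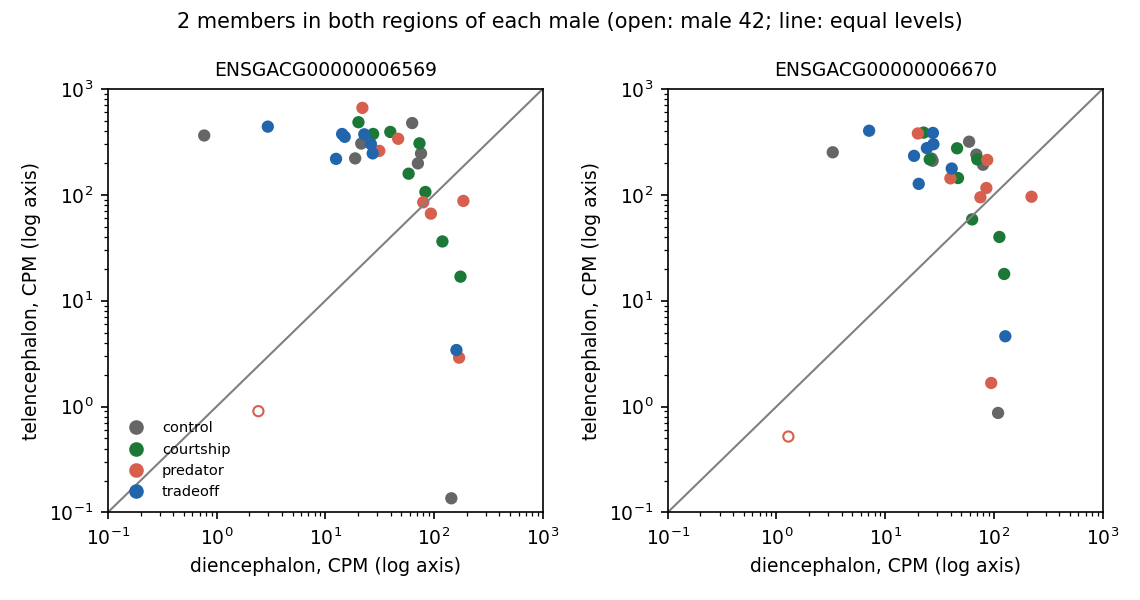
Telencephalon level (vertical, log axis, CPM) against diencephalon level (horizontal, log axis, CPM) of ENSGACG00000006569 (left) and ENSGACG00000006670 (right) in each male, coloured by treatment. The line marks equal levels and open circles mark male 42. Points run from the upper left, such as male 30 at 364 and 0.770 CPM for ENSGACG00000006569, to the lower right, such as male 15 at 0.136 and 144 CPM, and male 42 is low in both.

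ENSGACG00000002630 was the only member besides this pair that was not higher in the telencephalon in each of the 30 males. It was higher in 25 of them, with levels of 1.71 to 20.3 CPM in the telencephalon and 0.490 to 8.10 CPM in the diencephalon. Between males its SD was 0.88 (telencephalon) and 0.97 (diencephalon), and its levels in the regions of a male correlated at -0.23. In courtship male 7 it had 1.71 CPM in the telencephalon and 2.21 CPM in the diencephalon, and in tradeoff male 28 it had 11.6 and 0.490 CPM.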

How the data were processed

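The authors deposited unnormalised whole-number read counts, 1 file per library, over all gene models. Per the submitters' processing notes, STAR and HTSeq were used; versions, genome build, annotation and strand setting were not given in the sources used here, so overlapping antisense genes cannot be assumed separated. Tally lines were dropped, and CPM computed from the sum over 22295 models. Identifiers were looked up in RefSeq assembly fGasAcu3.hap1.1 (0 of 22295 matched).

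The members and gene lists, tests and alternatives were chosen with earlier results of these data known. Each region's 31 libraries in 4 treatments were fitted with edgeR 4.0.16 (R 4.3.3; filterByExpr with minimum count 10 and minimum total 15, TMM, robust glmQLFit, glmQLFTest), Benjamini-Hochberg over all genes tested, threshold 0.05. All 62 libraries in 8 groups gave the region differences. SEs are the log2 fold change divided by the root of F. The fits were tested on simulated data. Alternatives were RLE scaling, no filter, DESeq2 1.42.0, voom (limma 3.58.1), 1 joint fit, left-out libraries, the index covariate and a replicate block. Genes named were the extremes in level, spread, index correlation and regional correlation, those nearest each limit, and at most 2 per direction among members that passed in a comparison. Male numbers in the labels pair the regions. Deviations of same-numbered libraries correlated at 0.0708 to 0.671 (mean 0.429), and those of different males at -0.367 to 0.350 (mean -0.0129). The ranges overlapped, and the best match was the own male for 26 of 31.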

Additional observations from a re-analysis of the deposited data

Results flagged for a closer look

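Over 8 quantities in the 8 groups, 64 groups of libraries, 11 held a lowest or highest male whose gap to the nearest other male was a large share of the group's range. For normally distributed values chance alone gives this in about 1 in 20 groups. Some of the genes were chosen for their wide spread and the groups share males, so the count cannot be judged against that rate. The library labelled as the telencephalon of predator male 42 accounts for 4 of them. Its summed member level was 486 CPM against 6498 to 7632 CPM in the other 7 predator males, and it had 15.4 CPM of ENSGACG00000016074, 0.603 CPM of ENSGACG00000000451 and 0.137 CPM of ENSGACG00000009792. The telencephalon of control male 30 stood below its group in the sum, 4286 CPM against 5879 to 6996 CPM, and in ENSGACG00000016074, 267 CPM against 388 to 453 CPM.

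The remaining cases involve the pair whose levels in the regions of a male were negatively correlated. The diencephalon of tradeoff male 1 was above its group in the sum of the members (1653 CPM against 1220.2 to 1406 CPM), in ENSGACG00000006569 (161 CPM against 2.96 to 27.3 CPM) and in ENSGACG00000006670 (127 CPM against 7.12 to 41.0 CPM). For ENSGACG00000006670 the telencephalon of control male 15 was low at 0.871 CPM, and the diencephalon of predator male 23 was high at 222 CPM. Without this pair the diencephalon sum of male 1 was 1364 CPM, close to the highest of all males, 1365 CPM.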

How the results depend on the processing

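The number of members, 85, was 82 with an offset of 1 CPM (62 shared), 76 with means (67 shared), 81 with ratios within males (73 shared), 89 with TMM-scaled CPM (83 shared) and 88 without male 42 (85 shared). The median spread of the members in the telencephalon, 0.757 (SD of log2 level), was 0.247 without male 42, 0.196 without males 42, 30 and 12, and 0.194 after the regional index. Counts of members past the edgeR threshold were 0 with all libraries. In the telencephalon without male 42 they were 2 for the predator cue and 1 for predator against control (0.0375% and 0.0161% of all genes called higher). With the index covariate they were 3 for the predator cue, 1 for tradeoff against control and 1 for any treatment difference. The shares of all genes were 0.0428%, 0.0214% and 0.0161%. Without males 42, 30 and 12 they were 4 for any treatment difference (0.186% of all genes) and 1 each for the female, the predator cue and tradeoff against control. The shares of all genes were 0.00531% called lower for the female, 0.0266% higher for the cue and 0.0159% lower for tradeoff. No other setting run called a member, though some called more genes. For any treatment difference in the telencephalon the joint fit called 113 of 19321 genes, and the fit with no filter 23 of 21723. The joint fit also called 24 genes for predator and 12 for courtship against control there. The members' median log2 fold changes, which were not tested, changed sign in some settings, such as the predator cue in the telencephalon, -0.05 with all libraries and 0.04 without male 42. The replicate block (male) left the region differences at 0 members for courtship, predator and tradeoff. With all libraries 0, 1 and 2 members were at an unadjusted p under 0.05 (3.31%, 2.63% and 2.32% of all genes). Without both libraries of male 42 the block gave 4, 9 and 2 members (5.51%, 7.70% and 4.49% of all genes). The members' median predator difference was -0.16 in the first of these fits and 0.18 in the second. The depth of 26.2 M counts or more per library gave a member 247 counts in the median diencephalon library and 1321 in the median telencephalon library. The telencephalon fit was run on simulated data with known changes for the predator cue, but the smallest change that this depth could detect was not derived.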
